A study of Mus musculus with 6 samples.

Results

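Lysyl oxidases and collagen hydroxylases are the enzymes that modify and cross-link collagen. The genes described here are the lysyl oxidase family (Lox, Loxl1, Loxl2, Loxl3 and Loxl4), the lysyl hydroxylases Plod1 and Plod2, and the catalytic alpha subunits of the collagen prolyl 4-hydroxylases (P4ha1, P4ha2 and P4ha3). They were chosen by name, as probe sets annotated to 1 of these 10 symbols, with the probe set of the highest mean over all 6 arrays where a gene had more than 1. This gave 9 genes of the 19938 genes tested. The probe set for Loxl2 is annotated to Loxl2 and Gm21451 together, so it was not used here. Loxl4 was the only gene of the 9 with 2 probe sets.

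Each of 6 RNA samples was hybridised to its own Affymetrix array. The osteosarcoma group held 3 lines (OS_493H, OS_494H and OS_716H), each from a primary tumour of a C57Bl6 mouse with Osx-Cre and fl/fl (floxed) alleles of both p53 and Rb. In this model the Osterix promoter, active in the osteoblast lineage, drives Cre recombinase. OS_493H came from the hip of a female, OS_494H from the hip of a male and OS_716H from the tibia of a female, at ages labelled 188, 190 and 226 with no unit. The 3 osteoblast samples, called cultures 1 to 3 here, were KUSA4b10 cells, a C57Bl6 bone marrow stromal line, held past confluence for 21 days with ascorbate at 50 ug/ml in the medium. Both groups were grown in RPMI with serum. The labels name ascorbate for the KUSA4b10 cells only, so origin from a tumour and the lack of ascorbate, long confluence or differentiation cannot be told apart. The titles number the cultures and mark them Ex1, Ex2 and Ex3, without saying whether they were grown separately. All 3 are 1 cell line, and the p-values measure only the spread between these samples.

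A collagen chain is modified in the endoplasmic reticulum before it folds. Prolyl 4-hydroxylases, tetramers of alpha and beta subunits, hydroxylate prolines, which stabilises the triple helix. Lysyl hydroxylases act on lysines, and both kinds of enzyme need iron, 2-oxoglutarate and ascorbate. Outside the cell the copper-dependent lysyl oxidases oxidise lysine and hydroxylysine side chains of collagen and elastin to aldehydes, from which covalent cross-links form. In bone these cross-links give the collagen matrix its tensile strength, and which lysines were hydroxylated decides the type of cross-link.

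Values are log2 expression after RMA, and differences are osteosarcoma lines minus osteoblast cultures. A difference counted as called where limma's p, adjusted by Benjamini-Hochberg over the whole table, was under 0.05. By this rule 13.2% of all genes were called higher and 11.4% lower in the lines, and 24.6% in either direction. Pearson's r across genes ran from 0.993 to 0.997 between cultures and from 0.981 to 0.987 between lines. Culture 2 stood apart from the other 2 cultures, with 150 and 186 genes differing by more than 1 log2 unit, against 3 between cultures 1 and 3. The array labelled OS_716H, a female, went against its label: the X-inactivation RNA Xist was at 5.50, against 12.62 in OS_493H, and 3 genes of the Y chromosome were high, with Kdm5d at 8.92, Uty at 10.06 and Eif2s3y at 10.11, close to the male line. Called differences of the 9 genes are therefore also given without culture 2 and without OS_716H. Of 9 osteoblast markers 7 were measured, and 4 of these were called lower in the lines. Ibsp (bone sialoprotein) averaged 7.07 in the lines and 13.23 in the cultures, while Col1a1 averaged 13.25 and 13.31. Of 7 measured fat cell markers 6 were called lower in the lines, and their mean level was 6.78 to 7.03 over the lines and 10.14 to 10.83 over the cultures. Of 4 smooth muscle markers 2 were called higher in the lines, where the list averaged 10.91 to 11.46, against 8.91 to 9.66 in the cultures. None of 5 blood cell, 4 endothelial and 4 epithelial markers was called. The part of fat, muscle-like or osteoblast content in the differences below was not tested, and in such cultures fewer cells of a type and less RNA per cell cannot be told apart.

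The lysyl oxidase genes split in direction. Lox, Loxl1 and Loxl3 were called higher in the osteosarcoma lines by 1.78- to 2.64-fold, and Loxl4 was called lower by 3.08-fold. Of the 3 prolyl 4-hydroxylase alpha subunits P4ha3 was called higher, by 3.68-fold, while P4ha1 and P4ha2 did not pass. Neither of the lysyl hydroxylase genes Plod1 and Plod2 passed. Over all 9 genes 4 were called higher, 1 lower and 4 not, beside 13.2% and 11.4% of all genes. The median difference of the 9 was 0.41, against -0.02 over all genes. Lines and cultures were fully separated for 5 of the 9 genes, and for 41.5% of all genes.

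**Figure D1:**
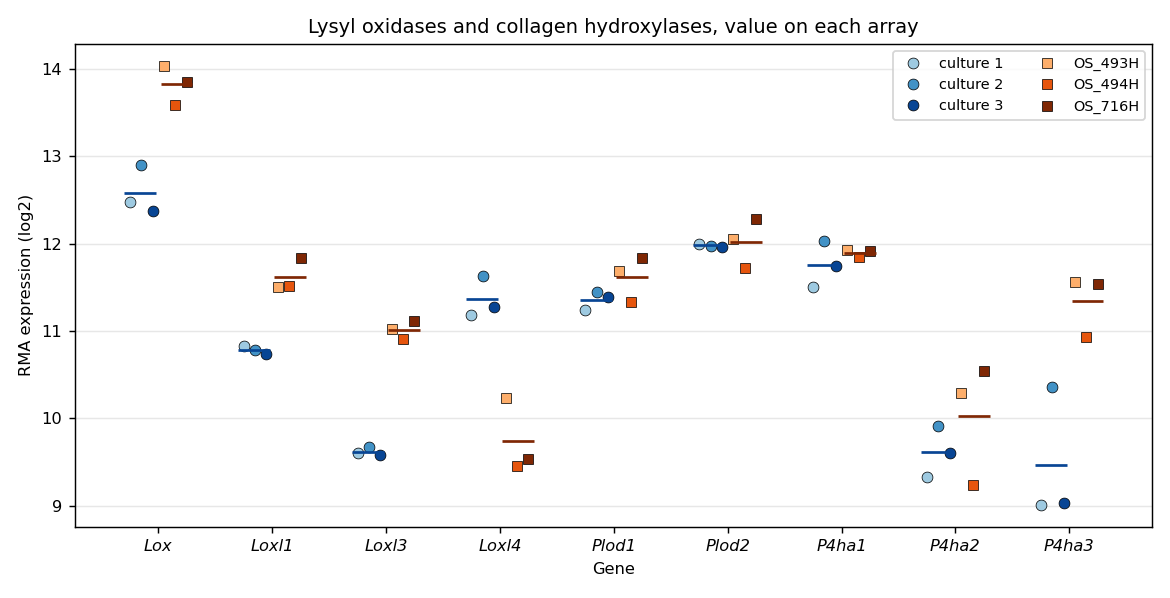
RMA expression (log2, y axis) of the 9 genes (x axis) on each of the 6 arrays; circles are the 3 osteoblast cultures, squares the 3 osteosarcoma lines, and horizontal bars the group means. The lines lie above all cultures for Lox, Loxl1, Loxl3 and P4ha3 and below them for Loxl4, and the groups overlap for the other 4 genes.

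Lox (probe set 10458894) encodes the founding enzyme of the family, secreted as a proenzyme that is cleaved before it acts on collagen and elastin. On the arrays of OS_493H, OS_494H and OS_716H its level was 14.04, 13.59 and 13.85, against 12.47, 12.90 and 12.37 in cultures 1, 2 and 3. All 3 lines were above all 3 cultures. The lines averaged 13.82 ± 0.23 (SD, n = 3), and the cultures averaged 12.58 ± 0.28 (SD, n = 3). The difference was 1.24 ± 0.17 (SE), a 2.36-fold higher level (limma adjusted p = 0.00362). Without culture 2 the difference was 1.40 (limma adjusted p = 0.0035), and without OS_716H it was 1.23 (limma adjusted p = 0.0117). The highest value of any probe set was 14.88, and how far signals this high are compressed was not tested.

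Loxl1 (probe set 10594066), an enzyme best known for its action on elastic fibres, was at 11.50, 11.52 and 11.84 in OS_493H, OS_494H and OS_716H and at 10.83, 10.78 and 10.74 in cultures 1 to 3. The cultures lay within 0.09 log2 units of each other, and each line was above them. The means were 11.62 ± 0.19 (SD, n = 3) and 10.78 ± 0.05 (SD, n = 3), a difference of 0.83 ± 0.11 (SE, limma adjusted p = 0.00282), or 1.78-fold. OS_716H was 0.32 above the next line, and without it the difference was 0.72 (limma adjusted p = 0.00331). Without culture 2 it was 0.83 (limma adjusted p = 0.0118).

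Loxl3 (probe set 10539263) encodes a family member with scavenger receptor domains ahead of the catalytic domain. It was at 11.03, 10.91 and 11.11 in OS_493H, OS_494H and OS_716H and at 9.60, 9.67 and 9.58 in cultures 1, 2 and 3. Both groups were tight, with a range of 0.20 over the lines and 0.09 over the cultures. The difference of 1.40 ± 0.08 (SE) was a 2.64-fold higher level and had the lowest adjusted p of the 9 genes (limma adjusted p = 3.36e-04). It was 1.43 without culture 2 and 1.35 without OS_716H (limma adjusted p = 0.00116 and 0.00132).

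Loxl4 (probe set 10467766), a relative of Loxl3 with the same domain plan, went the other way. It was at 10.24 in OS_493H, 9.46 in OS_494H and 9.53 in OS_716H, against 11.18, 11.63 and 11.28 in cultures 1, 2 and 3. All 3 lines were below all 3 cultures, and OS_493H was 0.71 above the next line. The means were 9.74 ± 0.43 (SD, n = 3) and 11.36 ± 0.24 (SD, n = 3). The difference was -1.62 ± 0.23 (SE), a 3.08-fold lower level (limma adjusted p = 0.00371), which ranks 237 among all falls. The other Loxl4 probe set, 10467768, gave a smaller fall, of 10.04, 9.33 and 9.61 in the lines against 10.67, 11.04 and 10.62 in the cultures. Its difference was -1.12 ± 0.20 (SE, limma adjusted p = 0.00942 over all probe sets). Without culture 2 the difference of the first probe set was -1.49 (limma adjusted p = 0.0139), and without OS_716H it was -1.52 (limma adjusted p = 0.0117).

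**Figure D2:**
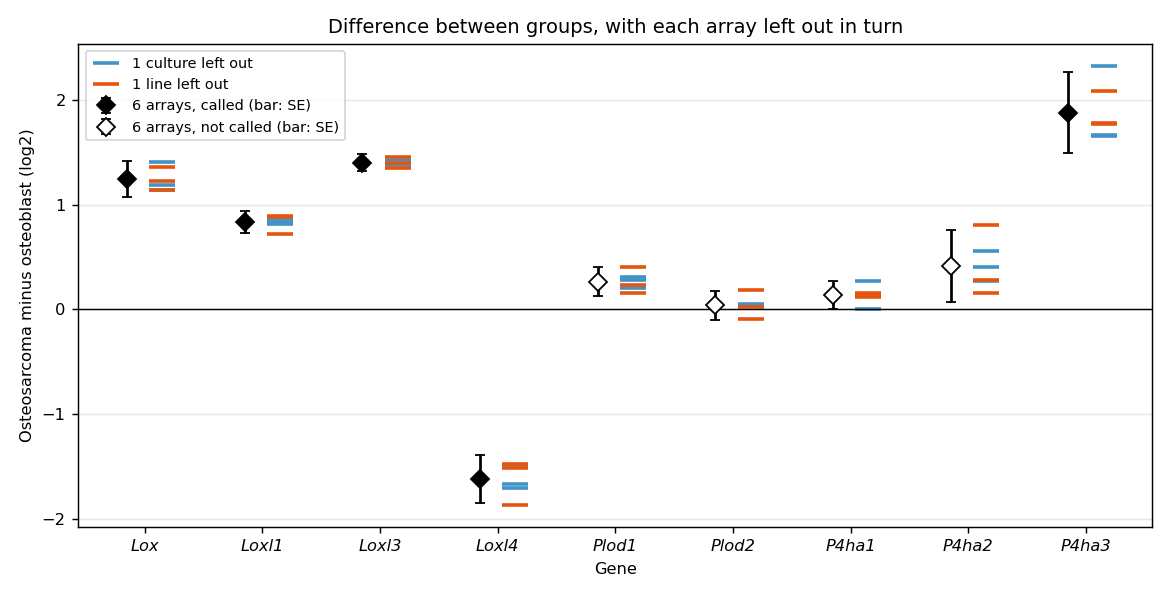
Difference of group means (osteosarcoma minus osteoblast, log2, y axis) for the 9 genes (x axis); diamonds show the fit of all 6 arrays with its SE, filled where the gene was called, and dashes show the difference when 1 culture (blue) or 1 line (orange) was left out. The 6 values with an array left out stay between 1.14 and 1.40 for Lox, between 1.35 and 1.45 for Loxl3 and between -1.87 and -1.48 for Loxl4, and they spread from 1.65 to 2.32 for P4ha3.

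Each of the prolyl 4-hydroxylase alpha subunits forms its enzyme with the same beta subunit, P4hb (protein disulphide isomerase), which did not pass (difference -0.12, limma adjusted p = 0.565). P4ha1 and P4ha2 are known as hypoxia-inducible genes. The upstream sequences of the 3 subunit genes are shown because 1 of them was called higher and the other 2 were not. They are the 250 bases before the annotated start, written 5′ to 3′ on the gene's strand, from RefSeq, build GRCm38.p6. Capitals mark ACGTG on either strand, a form of the core of the hypoxia response element. Another form, GCGTG, was not searched for and is not marked.
P4ha1, chr10:59323046-59323295, plus strand: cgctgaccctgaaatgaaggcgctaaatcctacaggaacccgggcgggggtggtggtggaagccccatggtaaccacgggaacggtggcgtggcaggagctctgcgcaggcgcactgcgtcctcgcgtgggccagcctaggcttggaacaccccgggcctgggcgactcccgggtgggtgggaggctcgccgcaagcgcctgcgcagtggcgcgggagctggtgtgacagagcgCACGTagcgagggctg
P4ha2, chr11:54100674-54100923, plus strand: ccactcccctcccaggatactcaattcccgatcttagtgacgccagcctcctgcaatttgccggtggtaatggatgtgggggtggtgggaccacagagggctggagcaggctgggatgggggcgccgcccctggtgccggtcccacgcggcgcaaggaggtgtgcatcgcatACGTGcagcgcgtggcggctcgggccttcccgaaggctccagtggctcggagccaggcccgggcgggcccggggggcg
P4ha3, chr7:100285270-100285519, plus strand: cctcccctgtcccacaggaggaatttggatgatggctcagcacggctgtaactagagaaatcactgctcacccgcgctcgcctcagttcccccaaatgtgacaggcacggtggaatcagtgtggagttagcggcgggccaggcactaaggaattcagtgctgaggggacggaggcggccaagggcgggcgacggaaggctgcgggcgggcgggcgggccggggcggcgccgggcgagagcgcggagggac
ACGTG occurs once before P4ha1, beginning 16 bases ahead of the start, and once before P4ha2, beginning 78 bases ahead. It is not in the window before P4ha3. It occurs in 16.6% of the 32851 promoter windows of this length that RefSeq gave. Promoter windows of 5 of the 10 genes were used here (Loxl4, P4ha1, P4ha2, P4ha3 and Plod1), and ACGTG was found for 2 of them. Windows on 1 chromosome were left out for the 10 genes, but not for the share over all promoters. The windows of the 5 genes are rich in G and C, at 61.6% to 76.0%, against a median of 52.4% over all promoters. They hold 16 to 27 pairs of C followed by G, against a median of 6. ACGTG holds such a pair itself, so 16.6% is not a like baseline for these windows. Whether these sequences act in the lines or the cultures was not tested.

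P4ha3 (probe set 10555323) had the largest difference of the 9 genes. It was at 11.56 in OS_493H, 10.93 in OS_494H and 11.54 in OS_716H, and at 9.01 in culture 1, 10.36 in culture 2 and 9.03 in culture 3. The groups did not overlap, but culture 2 was 1.34 above the mean of the other 2 cultures. The SD over the cultures, 0.77, was higher than that of 99.8% of all genes. The means were 11.35 ± 0.36 (SD, n = 3) and 9.47 ± 0.77 (SD, n = 3), a difference of 1.88 ± 0.39 (SE), or 3.68-fold (limma adjusted p = 0.0146). Without culture 2 the difference was 2.32 (limma adjusted p = 0.00238), and without OS_716H it was 1.78 (limma adjusted p = 0.0424). The call was lost without culture 1 (1.65, limma adjusted p = 0.0599), without culture 3 (1.66, limma adjusted p = 0.0588) and without OS_493H (1.77, limma adjusted p = 0.0501).

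P4ha1 (probe set 10363350) encodes the subunit found in most cell types. It was at 11.93, 11.85 and 11.91 in OS_493H, OS_494H and OS_716H and at 11.50, 12.03 and 11.75 in cultures 1, 2 and 3. The lines lay inside the range of the cultures. The difference was 0.14 with a 95% interval of -0.19 to 0.46 (limma adjusted p = 0.547). The SD over the lines, 0.04, was lower than that of most genes, at the 7.82 percentile.

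P4ha2 (probe set 10376074), the subunit that is prominent in cartilage and bone cells, differed most among the lines. It was at 10.30 in OS_493H, 9.24 in OS_494H and 10.55 in OS_716H, and at 9.33, 9.91 and 9.61 in cultures 1, 2 and 3. OS_494H was below all cultures and the other lines were above them, with 1.06 between OS_494H and the next line. The SD over the lines was 0.69, at the 97.1 percentile of all genes. The difference of 0.41 had a 95% interval of -0.41 to 1.23 (limma adjusted p = 0.459). Without OS_494H it was 0.81 and passed (limma adjusted p = 0.0229).

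The lysyl hydroxylase genes Plod1 and Plod2 did not pass, and their groups overlapped. Plod3, a lysyl hydroxylase gene outside the genes chosen, is counted below with the other hydroxylases. It did not pass either (difference 0.34, limma adjusted p = 0.196). Plod2 (probe set 10587829) encodes the enzyme for lysines in the collagen telopeptides, which lead to the cross-links typical of bone. It was at 12.05, 11.73 and 12.28 in OS_493H, OS_494H and OS_716H and at 12.00, 11.98 and 11.97 in cultures 1, 2 and 3. The cultures fell between the lines, within 0.03 of each other. The difference of 0.04 had a 95% interval of -0.30 to 0.37 (limma adjusted p = 0.889) and was -0.09 without OS_716H. Plod1 (probe set 10518408) encodes the enzyme for lysines within the triple helix. It was at 11.69, 11.34 and 11.84 in OS_493H, OS_494H and OS_716H and at 11.25, 11.44 and 11.39 in cultures 1, 2 and 3. The groups overlapped through OS_494H. The difference was 0.26 with a 95% interval of -0.07 to 0.60 (limma adjusted p = 0.235). Without OS_494H it was 0.40 and passed (limma adjusted p = 0.0302), so that 6 of the 9 genes were then called higher.

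Among the lines OS_494H had the lowest value for 8 of the 9 genes, all except Loxl1, and the highest for none. Over all genes OS_494H was the lowest line for 29.8% and the highest for 39.9%. For Loxl1 OS_493H was the lowest, by 0.01. The gap between OS_494H and the next line was also small for P4ha1 (0.06), Loxl4 (0.07) and Loxl3 (0.12). For the other 5 genes it ran from 0.27 for Lox to 1.06 for P4ha2. Some other lists of collagen genes had the same lowest line. OS_494H was also the lowest line for 15 of the 17 other collagen hydroxylases, glycosyltransferases and folding factors and for 8 of 11 fibrillar collagen chains, Col1a1 and Col1a2 among them. It was lowest for 6 of 8 collagen fibril partners, but for only 4 of 7 elastic fibre genes and 3 of 7 genes of procollagen propeptide processing. Culture 2 was the highest culture for 7 of the 9 genes, against 37.5% of all genes. The exceptions were Loxl1 and Plod2, where culture 1 was highest. Each line is 1 array, so the order of the lines has no replicate check.

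The enzyme genes were then set against their main substrate on the same array. Col1a1 and Col1a2, the chains of type I collagen, differed by -0.07 and -0.03 and did not pass (limma adjusted p = 0.893 and 0.925). The mean of Col1a1 and Col1a2 was subtracted from each gene, which shows unequal change only, since probe sets of different genes have different scales. Relative to collagen, Lox was higher in the lines by 1.29, Loxl1 by 0.88, Loxl3 by 1.45 and P4ha3 by 1.92, and Loxl4 was lower, with a difference of -1.58. The subtraction shifts the group difference of every gene by the same amount. These differences therefore restate those given above, and only the spread within the groups is new. For each of these 5 genes the groups did not overlap, with p = 0.1 in a two-sided exact permutation test, which is the least that 3 arrays per group can give. For P4ha3 the value of culture 2 came closer to the other cultures (-3.30 against -4.13 and -3.94). The other 4 genes overlapped, with differences of 0.08 to 0.46 and exact permutation p of 0.2 to 0.9. Subtracting collagen narrowed the lines and widened the cultures for Plod1 and Plod2. For Plod1 the SD over the lines was 0.03 after the subtraction and 0.26 before it, and over the cultures 0.31 and 0.10. With Col1a1 or Col1a2 alone as the reference the SD over the lines was 0.14 or 0.20. For Plod2 the SD over the lines was 0.07 after and 0.28 before, and over the cultures 0.36 and 0.02. With Col1a1 or Col1a2 alone the SD over the lines of Plod2 was 0.14 or 0.22. For P4ha2 OS_494H stayed below the other lines, at -3.71 against -2.98 and -2.84.

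**Figure D3:**
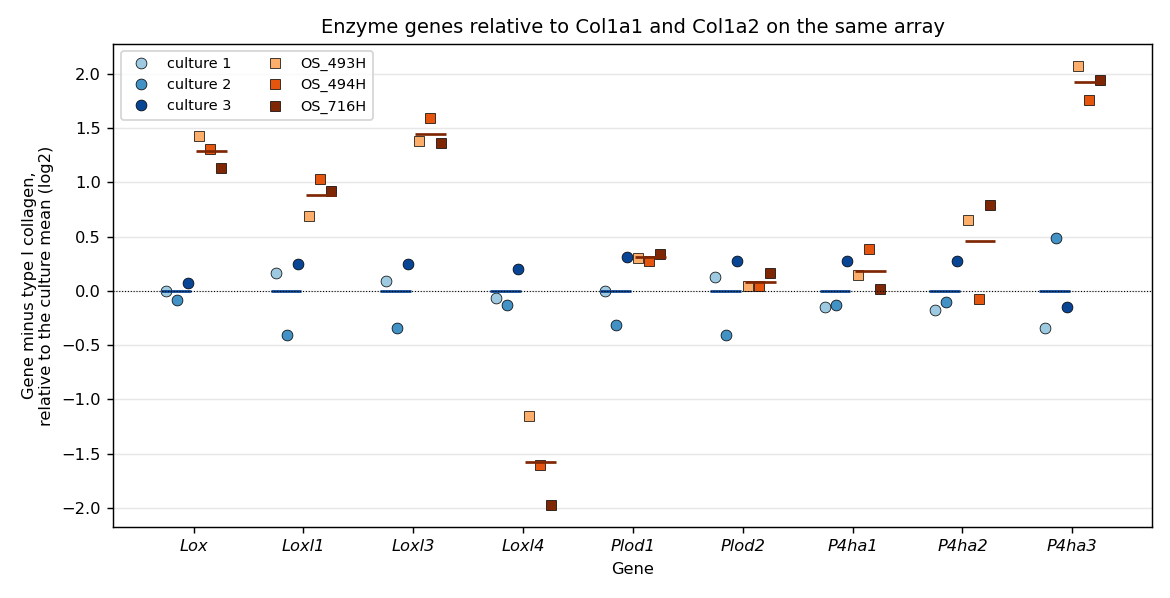
Each gene minus the mean of Col1a1 and Col1a2 on the same array, shown relative to the mean of the 3 cultures (log2, y axis) for the 9 genes (x axis); circles are cultures, squares lines and horizontal bars group means. Lox, Loxl1, Loxl3 and P4ha3 lie above and Loxl4 below all cultures, and for Plod1 and Plod2 the lines lie closer together than the cultures.

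For the 3 genes with the largest differences, the genes with the most similar profile were found by the root mean square distance between log2 values centred on each gene's mean over the 6 arrays, among all 19938 genes. The nearest to P4ha3 was Tuba1a, an alpha tubulin (distance 0.15), followed by Dpysl2 (0.22) and the centromere gene Cenpm (0.23). Tuba1a also had its highest culture value in culture 2, at 12.59 against 11.61 in both of the others. Its choice by likeness over the same 6 arrays favours such a match. Nearest to Loxl4 were Sgk3, Col15a1 and Rapgef3 (0.14 each). Col15a1, a basement membrane collagen, was at 8.96, 8.08 and 7.99 in OS_493H, OS_494H and OS_716H and at 10.11, 10.31 and 9.90 in cultures 1, 2 and 3. Nearest to Loxl3 were Dennd2c (0.06), Uaca (0.07) and Evc (0.08). Among the 9 genes the closest pairs were Plod1 with Plod2 (0.13) and Plod1 with P4ha1 (0.17), and Lox was closest to Loxl3 (0.19).

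Other genes of collagen synthesis were counted from lists that do not hold the 9 genes. Over all genes 13.2% were called higher and 11.4% lower. Of 17 measured collagen hydroxylases, glycosyltransferases and folding factors 2 were called higher and 3 lower, with a median difference of -0.12. The COPII coat genes Sec24d and Sec23a, which act in procollagen export, rose by 0.80 and 0.75 (limma adjusted p = 0.00552 and 0.01). The prolyl 3-hydroxylase P3h2 fell by 1.04 (limma adjusted p = 0.0173), a call lost on leaving out any 1 culture or OS_493H (up to 0.071). The collagen chaperone Serpinh1 and the export receptor Mia3, named after their values were seen, fell by 0.43 and 0.45 (limma adjusted p = 0.0349 and 0.0317). Serpinh1 kept its call only without culture 1 or OS_716H (up to 0.121 otherwise), and Mia3 only without culture 2 or OS_493H (up to 0.0965). Without culture 3 none of the list was called lower, and 1 was without culture 1, culture 2, OS_493H or OS_494H. Of 7 measured genes of propeptide cleavage 3 were called higher and none lower, with a median of 0.61. The enhancers of procollagen C-proteinase Pcolce2 and Pcolce rose by 2.76 and 0.61 (limma adjusted p = 0.00767 and 0.0184), and the proteinase Tll1 rose by 1.90 (limma adjusted p = 0.0129). The call of Tll1 was lost without culture 1 (limma adjusted p = 0.0541) and that of Pcolce without culture 1 or culture 3 (0.0734 and 0.0597), which left 1 of the list higher without culture 1 and 2 without culture 3. Without OS_494H 1 of the list was called lower.

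Substrates and partners were counted in the same way, beside 13.2% of all genes called higher and 11.4% called lower. Of 11 fibrillar collagen chains 1 was called higher and 2 lower, with a median of -0.01. Col3a1, often found with type I collagen, rose by 1.18 (limma adjusted p = 0.043), a call kept only without culture 2 or OS_494H among the 6 fits with 1 array left out (up to 0.146). Col5a3 fell by 0.78 (limma adjusted p = 0.00211) and Col11a2 fell by 0.41 (limma adjusted p = 0.036), and the call of Col11a2 was kept only without OS_716H (up to 0.104). Without culture 2, 2 chains were called higher, and without culture 1, culture 3, OS_493H or OS_716H none was, while 1 was lower without any 1 array except OS_716H. Of 7 measured elastic fibre genes 3 were called higher and 1 lower, with a median of 0.58. The microfibril genes Mfap5 and Fbn2 rose by 3.96 and 3.73, and Ltbp4, a latent TGF-beta binding protein, fell by 1.70 (limma adjusted p = 0.00415, 8.01e-04 and 1.71e-04). The third gene called higher, fibulin 5 (Fbln5), was named after its values were seen and rose by 1.26 (limma adjusted p = 0.0106). Elastin itself (Eln), also named after its values were seen, was not called, with a difference of -0.055 (limma adjusted p = 0.703). Of 8 fibril partners none was called higher and 3 lower, with a median of -0.26. Lumican (Lum) and decorin (Dcn), proteoglycans that bind collagen fibrils, were lower, with differences of -4.77 and -3.39 (limma adjusted p = 0.00172 and 0.0028), and fibronectin (Fn1) fell by 0.28 (limma adjusted p = 0.0231), a call lost without any 1 array except OS_716H (up to 0.0958). Of the partners 2 were called higher without culture 2 and 1 without OS_494H.

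Several of the 9 genes are known as targets of hypoxia-inducible factors, so other genes of that kind were counted. Of 20 measured genes 8 were called higher and 5 lower, with a median of 0.10, beside 13.2% and 11.4% of all genes. The prolyl hydroxylase of the hypoxia pathway Egln3 rose by 2.08 (limma adjusted p = 0.00385), the aldolase Aldoc by 1.77 (0.0138) and the kinase Pdk1 by 1.20 (0.0305). Aldoc did not pass when culture 1 or culture 3 was left out (limma adjusted p up to 0.0579), and Pdk1 passed only when culture 2 was (up to 0.113 otherwise). The 5 genes called lower were named after their values were seen. The growth factor gene Vegfa fell by 1.17 (limma adjusted p = 0.00343), Ndrg1 fell by 1.05 (0.0236) and Pfkfb3 fell by 0.92 (0.0253). The hexokinase Hk2 fell by 0.74 (limma adjusted p = 0.00297) and Mxi1 fell by 0.46 (0.00752). Ndrg1 kept its call only without OS_494H or OS_716H (up to 0.0815 otherwise), and Pfkfb3 lost it without culture 1, culture 2 or OS_493H (up to 0.0977). Without culture 1 or culture 3, 3 of the list were called higher, and without OS_493H or OS_494H, 5 were. Without culture 1, culture 2 or OS_493H, 3 were called lower. The part of hypoxia in the differences of the 9 genes was not tested.

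**Figure D4:**
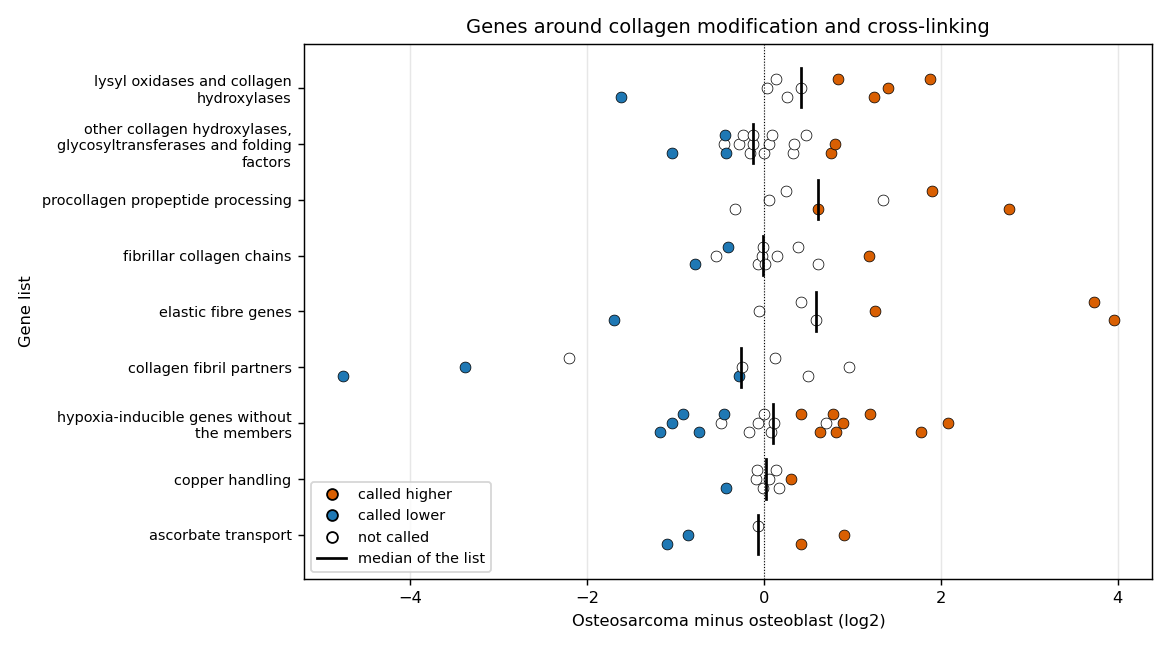
Difference of group means (osteosarcoma minus osteoblast, log2, x axis) for each measured gene of 9 lists (y axis); orange and blue points were called higher and lower, white points were not called, and vertical bars are list medians. The medians of the lists other than the 9 enzyme genes run from -0.26 for fibril partners to 0.61 for propeptide processing, beside -0.02 over all genes.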

How the data were processed

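Total RNA from 6 samples was hybridised to 1 array each. The authors deposited log2 values. They were made with RMA and build mm9 according to the submitters' processing notes; which program ran it is not given in the sources used here. The method corrects background, equalises the arrays' distributions and summarises probes, and leaves no detection call. The deposited values of 35556 probe sets lay between 3.04 and 14.88.

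Gene names came from the platform annotation: 21789 probe sets had 1 symbol, 1621 several and 12146 none. Of the 21789, 21698 were found by gene identifier in the RefSeq table of GRCm38.p6, and 0 symbols changed. The probe set with the highest mean was used per gene. The comparison used limma 3.58.1 under R 4.3.3 (lmFit, eBayes, two-sided, no covariate), with Benjamini-Hochberg adjustment over 19938 genes. The fit was also run on simulated data in which both groups had the same spread for each gene. In the real data the median SD over the lines was 1.42 times that over the cultures. The simulation is therefore no check of unequal spread.

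The genes and lists were chosen with earlier results of these data known. Up to 3 called genes with the largest difference were named per list, or the 2 largest as values where fewer than 2 passed. Vegfa, Ndrg1, Pfkfb3, Hk2, Mxi1, Serpinh1, Mia3, Fbln5, Eln, Plod3 and Slc2a1 were named outside this rule, after their values were seen. Markers and sex-linked genes served as checks. The alternatives tried were median centring, quantile normalisation, only brighter genes, intensity trend, robust moderation, a spread for each group, the mean of probe sets, each probe set, Col1a1 or Col1a2 alone as reference, and leaving out each array. No protein sequences were used here.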

Additional observations from a re-analysis of the deposited data

How the results depend on the processing

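The calls of Lox, Loxl1, Loxl3 and Loxl4 held under all alternatives run, with limma adjusted p up to 0.022 for Lox, 0.0178 for Loxl1, 0.00427 for Loxl3 and 0.0187 for Loxl4. P4ha3 was called in 10 of 13, with differences of 1.65 to 2.32 on leaving out 1 array. Plod1 (0.15 to 0.40) and P4ha2 (0.15 to 0.81) passed only without OS_494H. Plod2 (-0.09 to 0.18) and P4ha1 (0.01 to 0.27) passed in none. The sign of Plod2 changed without OS_716H and with quantile normalisation (-0.01). With 1 array left out, 3 to 6 of the 9 genes were called higher and 1 lower, and over all genes 1533 to 2796 were called higher and 1211 to 2314 lower. Median centring gave 3129 higher and 1800 lower genes. The call of Col3a1 was lost with quantile normalisation, robust moderation and a spread for each group (limma adjusted p = 0.0573, 0.0506 and 0.0581), which left 0 of the fibrillar chains higher. Col11a2 lost its call with the first and the last of these (0.0518 and 0.0521), which left 1 chain lower. Atox1 lost it with quantile normalisation and an intensity trend (0.0709 and 0.0792), Fn1 with median centring (0.0702) and Pdk1 with a spread for each group (0.0586). Serpinh1 and Mia3 lost it with median centring (0.0657 and 0.075) and Slc2a1 with a spread for each group (0.0637). Among the other genes named, Sec24d, Sec23a, Pcolce2, Col5a3, Mfap5, Fbn2, Fbln5, Ltbp4, Lum, Dcn, Egln3, Vegfa, Hk2, Mxi1, Ccs, Gsto1 and Slc23a2 were called in each fit with 1 array left out. Median centring left 1 gene, P3h2, lower in the list of other hydroxylases and folding factors, and called 1 fibril partner higher. A spread for each group left 1 ascorbate gene higher. Relative to Col1a1 or Col1a2 alone, the differences of all 9 genes shift by 1 common amount, as for Lox from 1.29 to 1.31 or 1.27. This is therefore no separate check of each gene. The causes were not tested. No paired analysis was run because the labels link no culture to a line. Precision is limited by having 3 arrays in each group, and signal over background was not measured here.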

Other observations

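Genes that handle the cofactors of these enzymes were counted as well. Lysyl oxidases need copper, which reaches them in the secretory pathway through the pump Atp7a and its chaperone Atox1. Of 8 copper handling genes 1 was called higher and 1 lower, with a median difference of 0.02. These counts are near the shares over all genes, 13.2% and 11.4%. Atox1 was at 10.18, 10.35 and 10.38 in OS_493H, OS_494H and OS_716H and at 10.06, 9.92 and 10.04 in cultures 1, 2 and 3, a rise of 0.30 (limma adjusted p = 0.048). That call was kept only without OS_493H among the 6 fits with 1 array left out (up to 0.135). Ccs, the copper chaperone of superoxide dismutase, fell by 0.43 (limma adjusted p = 0.00721). Atp7a differed by -0.02 (limma adjusted p = 0.92).

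The hydroxylases need ascorbate, which was added to the cultures. Of 5 genes of ascorbate transport and recycling 2 were called higher and 2 lower, beside 13.2% and 11.4% of all genes. Slc2a1 is in this list and in that of the hypoxia-inducible genes, and was counted as higher in both. The ascorbate transporter Slc23a2 was at 10.21, 10.15 and 10.66 in OS_493H, OS_494H and OS_716H and at 11.42, 11.12 and 11.07 in cultures 1, 2 and 3. All lines were below all cultures, and the difference was -0.87 ± 0.16 (SE, limma adjusted p = 0.0105). Gsto1, which can reduce dehydroascorbate, fell by 1.10 (limma adjusted p = 0.00211). Slc2a3, a glucose transporter that also carries dehydroascorbate, rose by 0.90 (limma adjusted p = 0.0121), a call lost without culture 3 (0.0524). Slc2a1, of the same family and named after its values were seen, rose by 0.42 (limma adjusted p = 0.0486), a call kept only without OS_716H (up to 0.111 otherwise). None of this list was called higher without culture 3, and 1 was without culture 1, culture 2, OS_493H or OS_494H. The part of these genes in the differences of the hydroxylases was not tested.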
